A study of Drosophila melanogaster with 3 samples.

Results

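The peaks described here are the promoter peaks of CG1529-GFP whose summits lay at a transcription start site (TSS) or on its transcribed side. Of the 3905 distinct intervals in the authors' joint peak list, 268 (6.86%) had a summit 0 to 500 bp downstream of the nearest annotated TSS, read along the strand of that gene, and are called downstream promoter peaks. The rule set aside 508 peaks at head-to-head promoters, where TSSs of a pair of genes point away from each other and a summit can lie downstream of neither. The other one-way promoter peaks, 851 in number, lay up to 500 bp upstream of the TSS, and 2278 peaks lay farther away. The position of the summit alone chose the members, so distances are given as a description.

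The embryos were whole Drosophila melanogaster of mixed sex, aged 0 to 14 h, from a single transgenic line with GFP joined to the C terminus of CG1529, an insertion whose driving sequence the labels do not state. All 3 libraries, labelled biological replicates 1, 2 and 3, belong to this single group, and chromatin had been sonicated to 200 to 800 bp. Each library's list holds 30000 peaks, and the read depth behind them is unknown. The antibody label names CG1529, while a free-text label calls the same libraries input controls, so each result below is of libraries with conflicting labels. Whole embryos mix cell types, and no library of a line without the tag was analysed here.

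A core promoter is the short stretch around a TSS on which RNA polymerase II and the general transcription factors assemble. In flies, proteins that bind DNA by sequence often sit just upstream of the TSS, in nucleosome-poor and A/T-rich DNA, whereas paused polymerase and the first nucleosome lie just downstream. Ribosomal protein genes use their own start element, a pyrimidine-rich TCT initiator, in place of the common initiator. Zinc-finger proteins of the C2H2 class, of which flies have many, bind DNA through tandem fingers.

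The first set of sequences shows what lay under some of the strongest downstream summits, each as 30 bases centred on the summit. They are from the release 6 genome (dm6), read 5′ to 3′ along the gene. lncRNA:CR44619, with a longest run of A and T of 6 bases, and GstE13 are also among the strongest but are not shown. Capitals mark the longest unbroken run of A and T, or the first such run where runs tie.
lncRNA:CR31840, chr2L:14024067-14024096, minus strand: aaaatcAAATAAcatgtgtactctgtacat
PNPase, chr3R:31404652-31404681, minus strand: agtctcaagaaacgtacagggcTTTTATTg
ph-p, chrX:2137950-2137979, minus strand: ATTAATAAActtaaaacttaataaatcaac
CG9399, chr3R:9574152-9574181, minus strand: gctgttgcggtgcTAAAATTATTTTTATAA
Ptp4E, chrX:4939966-4939995, plus strand: ttgaatttacatttcATATATTAActtcta
lncRNA:CR43334, chr3L:639738-639767, plus strand: gcagccgcATggttgtgccgctctcgcctg
The second set shows the start sites of ribosomal protein genes with a downstream summit, since these genes were the gene group met most often. Each is 30 bases with the TSS as the 11th, and capitals mark every TCTTT or CCTTT, the words searched for as a TCT initiator.
RpS4, chr3L:13041791-13041820, plus strand: cccgcaaatctgCCTTTtCCTTTtcctgtt
RpL24, chr2L:13395112-13395141, minus strand: ccgtggcagccacactaatttggctcagct
RpL8, chr3L:2587446-2587475, plus strand: gtcttccTCTTTTCTTTTCTTTtcgccccg
RpL9, chr2L:11004134-11004163, minus strand: attaaatttccctTCTTTTCTTTtccccgt
RpS3, chr3R:23358802-23358831, plus strand: ggcacactggccTCTTTCTTTtctgcgcac

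The downstream promoter peaks were fewer and weaker than the upstream ones. They made up 24.0% of the 1119 one-way promoter peaks (exact 95% interval 21.5 to 26.6%). Among the strongest peaks of each library, as many as the joint list has rows, the share was 19.5% in replicate 1 (200 of 1026), 31.4% in replicate 2 (408 of 1298) and 29.8% in replicate 3 (360 of 1210), a mean of 26.9% ± 6.46 (SD, n = 3). Replicate 1 held the smallest share, and upstream peaks outnumbered downstream ones in all 3 libraries.

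The median summit of the 268 peaks lay 185 bp downstream of its TSS, and the middle of the distribution ran between 76.3 and 346 bp. Within 50 bp of the TSS lay 51 of the downstream summits (19.0%), against 66 of the upstream summits (7.76%). The commonest bin differed between the classes, being 0 to 49 bp for the downstream summits, with 49 peaks, and 150 to 199 bp for the upstream summits, with 154 peaks. Just inside the rule lay the summits of mir-4962 at the TSS itself and of RpS4 and RpL11 1 bp beyond it, with signals of 191, 595 and 480. Just outside lay CG13506, RpS10b and RpS26, 1 bp upstream, with signals of 174, 491 and 180. At the far edge omd lay at 500 bp inside the rule, and COX7AL2 at 504 bp outside it.

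**Figure D1:**
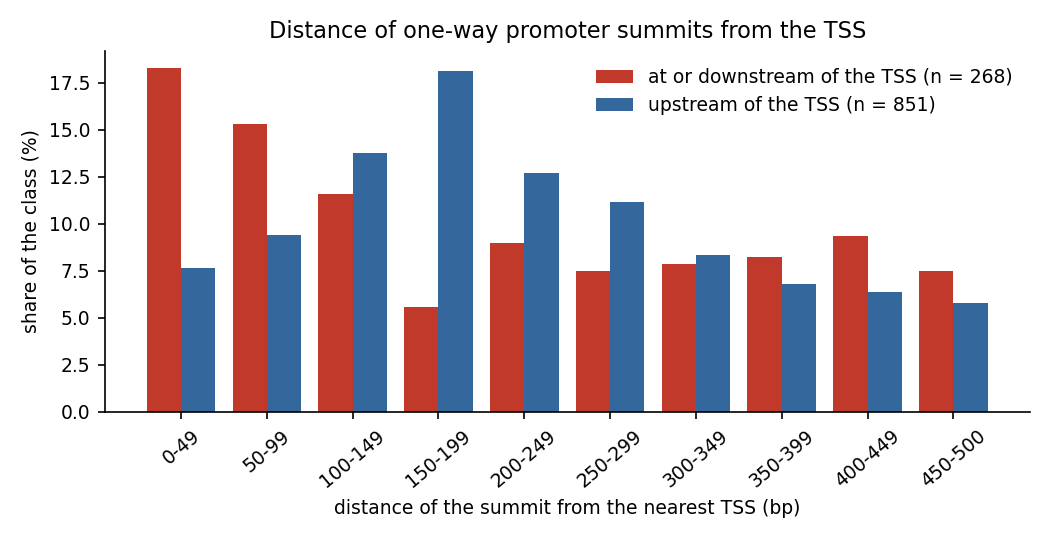
Share of each class (y axis, %) by distance of the summit from the nearest TSS (x axis, bins of 50 bp), for the 268 downstream and 851 upstream promoter peaks of the joint list. The downstream class is fullest in the first bin (49 peaks) and the upstream class at 150 to 199 bp (154 peaks).

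The strongest downstream peaks of the joint list also ranked high in each library. The joint list was made from these libraries, so the ranks describe the members and give no independent support. Signal is the authors' enrichment value per peak and serves to order and filter peaks, and to describe them, within a single list. The first, at lncRNA:CR31840, a long noncoding RNA gene, had a signal of 2111 and ranked 12, 7 and 14 in replicates 1, 2 and 3, with its summit 18 bp into the transcript (chr2L:14023889-14024356). PNPase, which encodes the mitochondrial RNA-degrading polynucleotide phosphorylase, had a signal of 2017 and ranks of 14, 16 and 18, with its summit 74 bp into the 5′ UTR (chr3R:31404480-31404843). ph-p, which encodes the Polycomb group protein Polyhomeotic proximal, had a signal of 1373 and ranks of 41, 43 and 44, with its summit at 407 bp in the 5′ UTR (chrX:2137673-2138112). Each of these peaks lay far above the median signal of the class, which was 231 (quartiles 186 and 344).

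Below them came further long noncoding RNA genes and genes of varied function. lncRNA:CR44619 had a signal of 1162 at 492 bp (chrX:12752186-12752545) and lncRNA:CR43334 one of 1039 at 39 bp (chr3L:639576-639972). The ranks of lncRNA:CR43334 spread more widely, at 151, 335 and 58. GstE13, a glutathione S-transferase gene, had 964 at 36 bp and CG9399 914 at 45 bp, both in the 5′ UTR. Ptp4E, a receptor protein tyrosine phosphatase gene, had 891 at 400 bp, in an intron (chrX:4939833-4940124). bchs, which encodes a BEACH-domain protein of autophagy, had 744 at 436 bp, and scramb2, a phospholipid scramblase gene, 728 at 382 bp, both in introns. CHES-1-like, a forkhead transcription factor gene, had 656 at 251 bp, sqh, which encodes the regulatory light chain of non-muscle myosin, 621 at 128 bp, and Ada2b, a subunit of the SAGA histone acetyltransferase complex, 589 at 419 bp. Of the 25 strongest peaks that overlapped a strongest peak in all 3 libraries, 16 lay at protein-coding genes and 9 at noncoding RNA genes. Their lowest rank in any library was 740, held by RpS4 in replicate 1, though the required overlap with a strongest peak bounded these ranks beforehand.

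**Figure D2:**
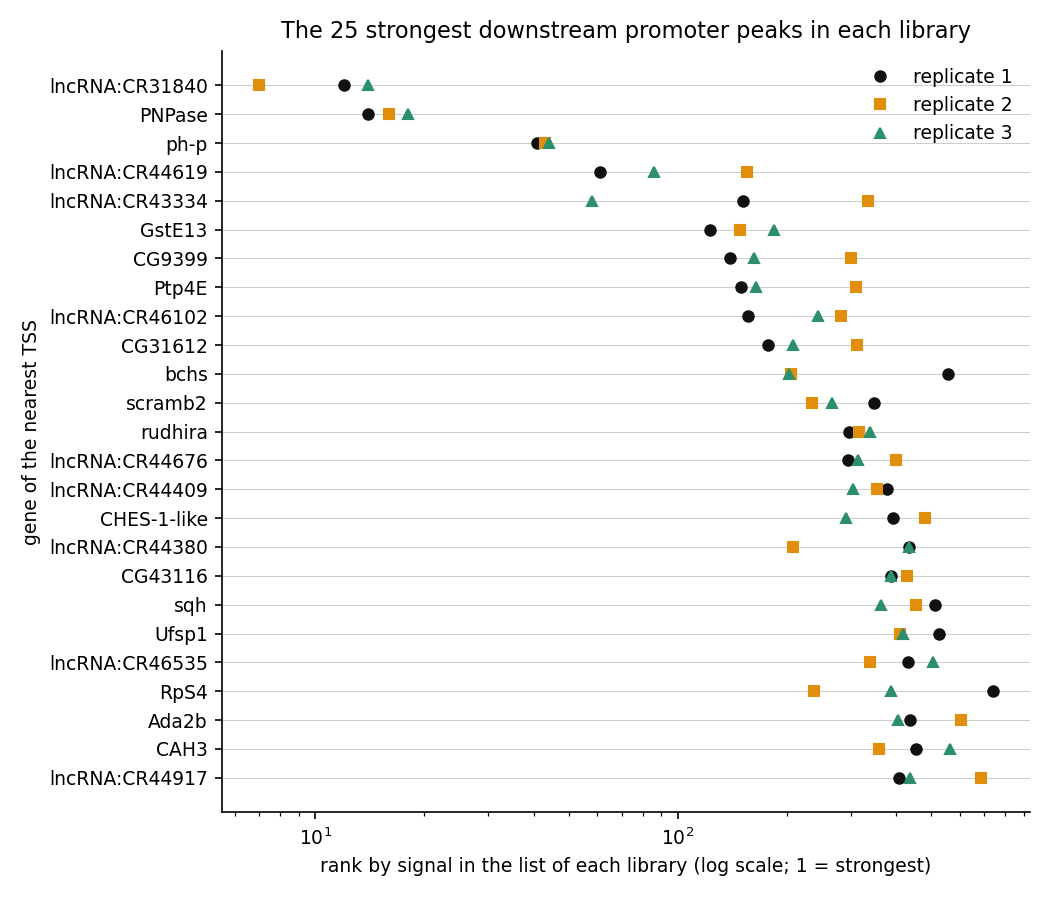
Rank of the 25 strongest downstream promoter peaks in the peak list of each library (x axis, log scale, 1 is the strongest), by gene of the nearest TSS (y axis). lncRNA:CR31840, PNPase and ph-p rank within the first 44 in all 3 libraries, and RpS4 ranks lowest, at 740 in replicate 1.

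As a class, the downstream peaks were less often supported by every library, strong or narrow than the upstream ones. A strongest peak in all 3 libraries, overlapping by at least 50% of each peak, was found for 104 of 268 downstream peaks (38.8%), against 411 of 851 upstream peaks (48.3%), where 45.5% of all distinct peaks in the list had one. The difference of -9.49 percentage points passed Fisher's exact test (two-sided, adjusted p = 0.00752 over 4 such comparisons). The difference followed replicate 1. By any overlap, replicate 1 had a strongest peak at 65.3% of downstream and 85.7% of upstream peaks, replicate 2 at 82.8% and 85.0%, and replicate 3 at 89.2% and 89.9%. Without replicate 1 the difference in support was 3.62 points in the other direction and did not pass (Fisher's exact test, p = 0.316), nor did it pass with a window of 1000 bp, with head-to-head promoters kept, with more library peaks or among peaks above the median signal. Allowing any overlap, all 3 libraries had a strongest peak at 140 downstream peaks (52.2%) and 603 upstream peaks (70.9%), where the whole list had 64.4%.

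Signal and width gave the same order. A signal above the median of the joint list was met in 117 downstream peaks (43.7%), against 499 upstream peaks (58.6%; Fisher's exact test, adjusted p = 3.01e-05). Within the libraries, the same share was 49.5, 38.7 and 36.4% of downstream peaks in replicates 1, 2 and 3, against 59.7, 54.5 and 59.6% of upstream peaks, lower in 3 of 3. Peaks narrower than the median width of 436 bp, a width that the authors' calls share widely, made up 68 downstream peaks (25.4%), against 356 upstream peaks (41.8%; Fisher's exact test, adjusted p = 1.72e-06) and 33.0% of the list. This share was lower in each library too, at 13.5, 6.86 and 12.5% for downstream peaks, against 24.1, 19.8 and 29.8% for upstream peaks. Peaks are not replicates of the experiment, and several share a gene, so these p-values compare peak classes within a list and not independent embryos.

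Where the summits fell within the transcript differed from the annotated layout of fly genes. In the coding exons of transcripts that start at the same TSS lay 6 of the 268 summits (2.24%, exact 95% interval 0.826 to 4.81%), whereas 27.5% of positions at the same distances from all 23998 annotated gene starts lay in coding exons. The 6 genes were Blos3, CG32195, CG44812, lace, RpS15 and Rab6. Introns held 76 summits (28.4%, interval 23.0 to 34.2%), against 17.3% of such positions. The 5′ UTR held 128 summits (47.8%, interval 41.6 to 53.9%), against 36.8%, and exons of noncoding RNAs 49 (18.3%), against 12%. Counting among all annotated starts only positions for which that start was the nearest, as the rule requires, gave 29.4% in coding exons, 15.7% in introns and 38.6% in the 5′ UTR.

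The low share in coding exons held in each library's own peaks, with a mean of 2.64% ± 0.496 (SD, n = 3). The mean was 29.1% ± 5.85 for introns and 49.4% ± 12.8 for the 5′ UTR, where replicate 1 was lowest, at 35.0%. For noncoding exons the libraries disagreed, at 22.5, 11.3 and 13.6% in replicates 1, 2 and 3, against 11.3, 12.7 and 12.3% of positions, so that the higher share of the joint list was seen mainly in replicate 1 and not in replicate 2. Among the 206 downstream peaks at protein-coding genes, 2.91% lay in coding exons, 35.0% in introns and 62.1% in the 5′ UTR, against 32.2, 18.6 and 48.1% of positions at coding starts. No test was run on these shares, since all annotated starts are not a sample.

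**Figure D3:**
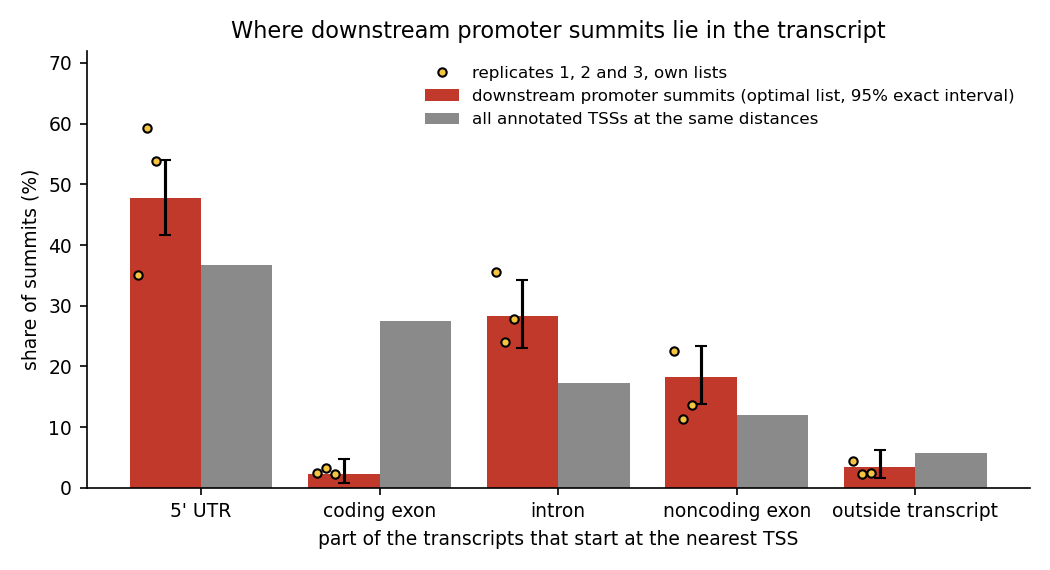
Share of downstream promoter summits in each part of the transcripts that start at the nearest TSS (red, with exact 95% intervals; points are the 3 libraries) and of positions at the same distances from all annotated gene starts (grey); y axis in %. Coding exons hold 2.24% of summits against 27.5% of positions, and introns 28.4% against 17.3%.

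Noncoding RNA genes made up a larger share of the downstream than of the upstream class, a difference that was not tested. Their starts were nearest to 56 downstream peaks (20.9%), against 64 upstream peaks (7.52%) and 14.3% of all annotated starts. In the libraries' own peaks the shares were 28.0, 12.3 and 15.8% of downstream peaks in replicates 1, 2 and 3, against 7.38, 7.08 and 8.24% of upstream peaks, with replicate 2 below the share of all starts. Protein-coding genes were nearest to 206 downstream peaks (76.9%), against 781 upstream peaks (91.8%) and 81.7% of starts. Nearly all downstream peaks were alone on their TSS, with a peak of the joint list also upstream of the same start in 13 of 268 cases. At 41 the summit also lay upstream of another TSS of the same gene, so that it was downstream of one start and ahead of another. At CG43116 a summit with a signal of 624 at 391 bp stood with one of 474 at -287 bp. The pair of members at each of AnxB11, CHES-1-like and lncRNA:CR43334 overlap or lie beside each other and share their sequence.

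Mean G+C was higher at downstream than at upstream summits, with wide overlap between the classes. All annotated starts differed in the same direction at the same distances, with 44.7% on the downstream and 39.3% on the upstream side. In the 101 bases around the summit, G+C averaged 39.3% ± 9.26 (SD, n = 268 peaks) for downstream peaks and 33.4% ± 9.78 for upstream peaks (n = 851). Below the median of both classes lay 75 downstream peaks (28.0%), against 481 upstream peaks (56.5%; Fisher's exact test, adjusted p = 7.94e-16). In the libraries' own peaks the means were 37.1, 41.7 and 39.9% for downstream peaks of replicates 1, 2 and 3, against 33.3, 35.3 and 34% for upstream peaks. The difference of 5.34 ± 1.38 points (SD, n = 3) was positive in 3 of 3 libraries (exact sign-flip permutation test, two-sided, p = 0.25, the smallest that 3 libraries allow).

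Both classes were poorer in G+C than annotated starts at the same distances, where the mean was 44.7% at the distances of the downstream peaks and 39.3% at those of the upstream peaks. The shortfall was -5.36 points for downstream and -5.87 points for upstream summits. Against the sequence 300 bp to either side the values were -3.04 points for downstream and -9.91 points for upstream summits. These flanks fall on different parts of the promoter in each class, and all annotated starts differ there too. In windows of 21 bp, all starts averaged 46.0% at 180 bp, with 37.9% at -120 bp and 45.6% at 480 bp. They averaged 37.9% at -200 bp, with 41.3% at -500 bp and 43.4% at 100 bp. Whether the classes differ beyond this layout was not tested. The profile around downstream summits was 38.7% in the 21 bases of the summit. Its shallow and local low point lay 40 bp past the summit, at 38.1%. It was lower still 580 bp ahead of the summit, at 36.0%. The profile around upstream summits had its low point at the summit, at 32.1%.

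**Figure D4:**
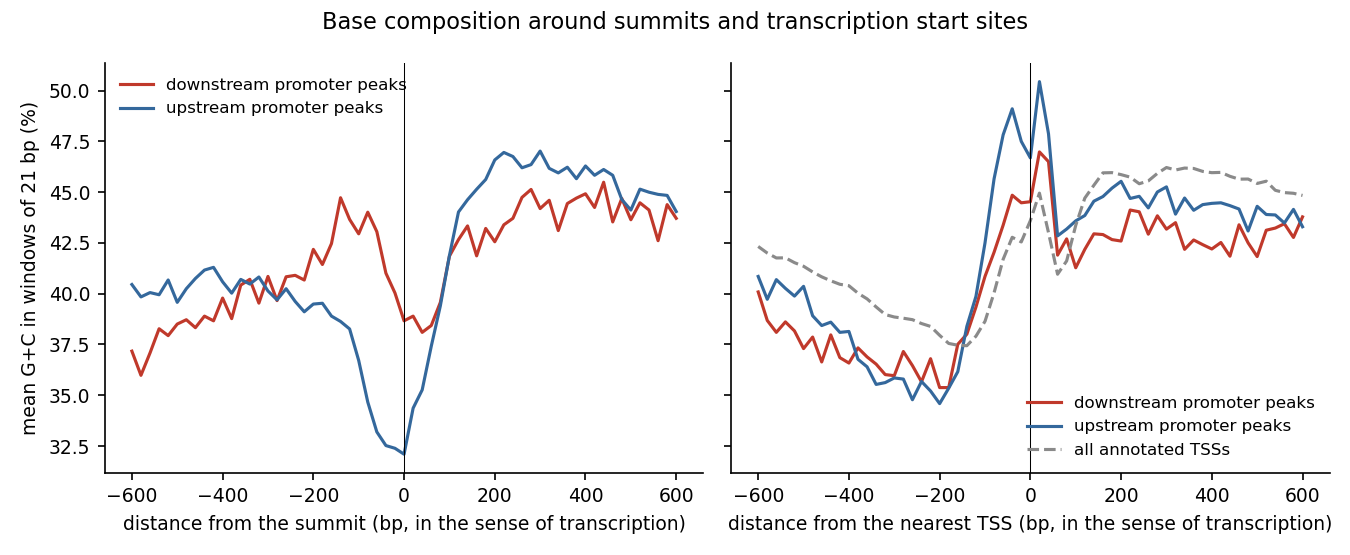
Mean G+C (y axis, %, in windows of 21 bp) by distance from the summit (left) and from the nearest TSS (right) for downstream and upstream promoter peaks, with all annotated TSSs as a dashed line. For downstream peaks the local low point is shallow, at 38.1% 40 bp past the summit, with a lower value of 36.0% 580 bp ahead. For upstream peaks the low point is deep and at the summit, at 32.1%.

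The shortfall in G+C differed with distance, though not step by step. The 91 downstream summits within 100 bp of the TSS averaged 42.6% G+C, against 43.0% for all starts at the same distances, and 46 of them lay below that background. The 89 summits at 101 to 300 bp averaged 40.3%, against 45.3%. The 88 summits beyond 300 bp averaged 35.0%, against 45.9%, and 79 of them (89.8%) lay below. In finer bins the mean went up again in places, at 43.2% within 50 bp, 41.9% at 51 to 100 bp, 38.5% at 101 to 200 bp, 42.1% at 201 to 300 bp, 33.3% at 301 to 400 bp and 36.6% at 401 to 500 bp. In the libraries' own peaks the summits beyond 300 bp were -9.95 ± 1.44 points from that background and those within 100 bp -0.476 ± 3.03 points (SD, n = 3). Within 100 bp the libraries fell on both sides, at -3.85, 2.04 and 0.378 points in replicates 1, 2 and 3. The far summits were -6.55 ± 2.32 points from the near ones, lower in 3 of 3 libraries (exact sign-flip permutation test, p = 0.25, the smallest possible).

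Transcript part and library also varied with distance. All 91 near summits lay in exons, while 47 of the 88 far summits lay in introns. Noncoding RNA genes accounted for 9 of the near and 28 of the far summits. Positions at all annotated starts were not counted for these separate ranges, so these counts were not set against the usual layout of fly genes. Median signal was 221 within 100 bp, 228 at 101 to 300 bp and 266 beyond. A strongest peak of replicate 1 overlapped 46 of the 91 near summits (50.5%), against 83 in replicate 2 (91.2%) and 77 in replicate 3 (84.6%). For the far summits the shares were 79.5, 75 and 92.0%. Replicate 1 was thus the low library near the TSS, whereas replicate 2 was the lowest beyond 300 bp.

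Since the joint list was made from these libraries and its summits chose the members, the position of the summit in each library is given as a description. A peak in the whole list of every library overlapped 237 of the 268 members. The strongest such peak had its summit at or downstream of the same TSS in 212 of 239 cases in replicate 1 (88.7%), 254 of 268 in replicate 2 (94.8%) and 254 of 266 in replicate 3 (95.5%). All 3 libraries had the summit on the downstream side at 202 of the 237 (85.2%). That was so for 181 of the 192 whose joint summit lay beyond 50 bp (94.3%), and for 21 of the 45 within 50 bp (46.7%). The summit moved over a median range of 49 bp between libraries. How far this movement accounts for the contrast between near and far summits was not tested.

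Cytoplasmic ribosomal protein genes, which encode the proteins of the cytosolic ribosome, were the list with the highest share. Of 83 such genes 14 had a downstream promoter peak (16.9%, exact 95% interval 9.54 to 26.7%), where 268 of all 18164 annotated genes (1.48%) had one. A further 17 of the 83 had an upstream peak (20.5%), where 808 of all genes (4.45%) had one. The 14 summits lay close to the start, at a median of 13 bp (1 to 105 bp), and 13 of them within 50 bp. They made up 13 of the 51 downstream summits in that range. Their median signal was 249, near that of the whole class.

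RpS4, of the small subunit, was the strongest, with a signal of 595 at 1 bp (chr3L:13041663-13041891) and ranks of 740, 237 and 388 in replicates 1, 2 and 3. RpL24, of the large subunit, had 475 at 12 bp (chr2L:13395013-13395237) and ranked 725, 496 and 723. RpL8 had 380 at 9 bp, with ranks of 1884, 666 and 973, and RpL9 338 at 8 bp, with ranks of 2748, 614 and 1284. RpL11 had 480 at 1 bp and no overlapping peak in replicate 1. Its summits in replicates 2 and 3 lay upstream, at -29 and -2 bp, so no library placed it downstream. In each of these genes replicate 1 gave the lowest rank or no peak. The remaining genes, among them RpS7, RpL7A, RpL35A, RpS2, RpL36A, RpS15, RpS3 and RpS12, had signals between 159 and 282. Reads from processed copies of ribosomal protein genes could not be told apart here from reads of the genes themselves.

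The libraries placed these summits on different sides of the TSS. In replicate 1 the summit lay at or downstream in 2 of the 11 genes with a peak, at a median of -20 bp (-70 to 6 bp). In replicate 2 it lay downstream in 13 of 14, at a median of 35 bp (-29 to 139 bp), and in replicate 3 in 13 of 14, at a median of 25 bp (-2 to 99 bp). The other downstream peaks within 50 bp of a TSS showed no such split, with 26 of 36, 28 of 38 and 28 of 37 on the downstream side and medians of 16.5, 23 and 19 bp. In each library's own strongest peaks, 3, 20 and 18 ribosomal protein genes had a downstream peak in replicates 1, 2 and 3, and 17, 12 and 15 an upstream one. Apart from RpL11, the downstream position of these summits in the joint list was thus that of replicates 2 and 3, and not of replicate 1.

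**Figure D5:**
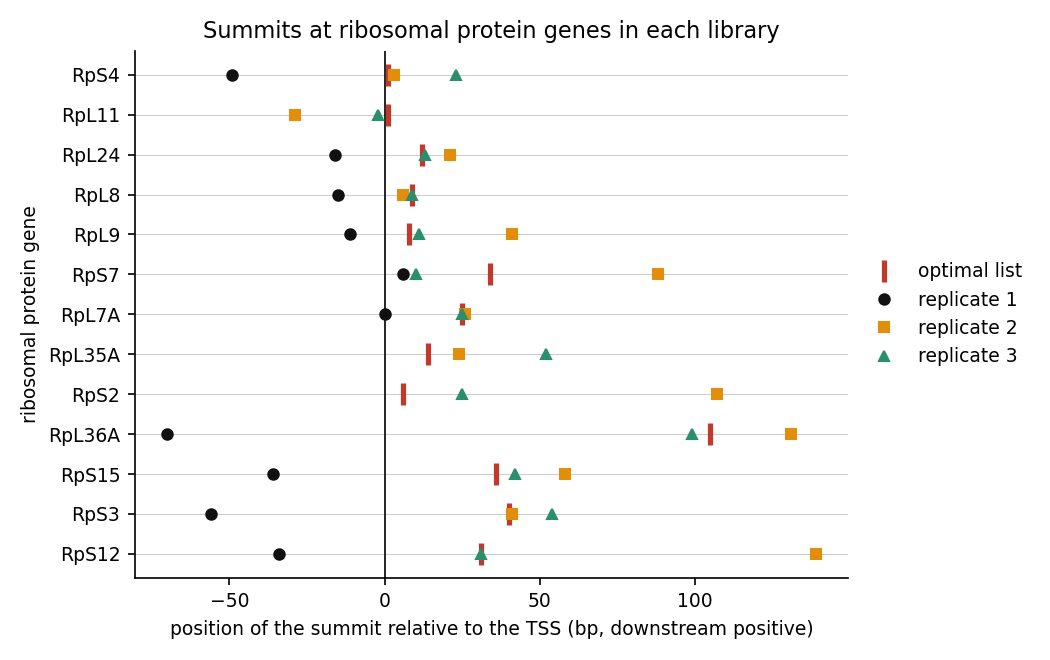
Summit position relative to the TSS (x axis, bp, downstream positive) at 13 of the 14 ribosomal protein genes with a downstream promoter peak (y axis, ordered by signal), in the joint list and in each library where a peak overlapped. Over all 14 genes, replicate 1 lies at or downstream of the TSS in 2 of 11 with a peak, and replicates 2 and 3 in 13 of 14 each.

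The start sites of these genes carried the TCT words printed above. TCTTT or CCTTT with its first base between -6 and +4 of the TSS was found at 7 of the 14 (50%), against 8 of the 17 ribosomal protein genes with an upstream peak (47.1%). At all annotated starts of ribosomal protein genes the share was 37.4% (55 of 147), and over all TSSs 2.48%. Among the other downstream peaks 3.94% of starts held it. Anywhere in the 30 bases the words stood at 11 of the 14, against 5.76% of all TSSs. RpL24, printed above, has none in its window.

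Over the whole class, 2 of 12 short sequence words differed between downstream and upstream summits, both lower downstream (16.7% of the words tested). Words were sought on both strands within 50 bp of the summit. The TATA box word TATAAA stood at 36 downstream summits (13.4%), against 221 upstream summits (26.0%; Fisher's exact test, adjusted p = 0.000159), lower in 3 of 3 libraries. The A/T word ATTTAAAA, which can overlap the TATA word, stood at 8 downstream summits (2.99%), against 66 upstream summits (7.76%; Fisher's exact test, adjusted p = 0.0277), also lower in 3 of 3. At all TSSs, windows at the median downstream and upstream distance held TATAAA in 7.80 and 17.9% and ATTTAAAA in 1.37 and 4.69%. Both words are made of A and T alone, and the class with the lower share had the higher G+C. Whether the words differ beyond base composition was not tested. Neither passed among peaks above the median signal of the list (Fisher's exact test, adjusted p = 0.104 each). ATTTAAAA was the less firm of the pair, since it also did not pass with a window of 250 bp (Fisher's exact test, adjusted p = 0.0669), with one of 1000 bp (adjusted p = 0.597) or with protein-coding starts alone (adjusted p = 0.0611).

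None of the 12 words was higher downstream by Fisher's exact test after adjustment (0% of those tested), and 1 was at an unadjusted p under 0.05. This was CTTTTC, at 15.3% of downstream and 9.75% of upstream summits (Fisher's exact test, adjusted p = 0.0562). The BEAF-32 word CGATA, bound by an insulator protein of that name, stood at 10.1% of downstream and 14.7% of upstream summits (Fisher's exact test, adjusted p = 0.165), and the homeodomain word TAATTA at 6.34 and 9.87% (Fisher's exact test, adjusted p = 0.174). The DRE, M1BP, Ohler 6, E-box, GAGA, Zelda and CTCF words did not pass either.

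The core promoter elements of the start sites gave 0 of 6 calls (0%) by Fisher's exact test, in either direction, with 1 at an unadjusted p under 0.05. This was the initiator word TCAGT, sought on the sense strand with its first base between -8 and +4, at 11.9% of starts with a downstream peak and 18.6% of starts with an upstream peak (Fisher's exact test, adjusted p = 0.0700), against 10.2% of all TSSs. The TCT initiator stood at 6.34% of the downstream and 3.64% of the upstream starts (Fisher's exact test, adjusted p = 0.163). The downstream promoter element, which lies within the transcribed DNA and binds the general factor TFIID, was read from GACGT on the sense strand, with GGTCG counted in the same way and likewise the variant GGTTG, each with the first base at 18 to 34. It stood at 7.84% of the downstream and 12% of the upstream starts (Fisher's exact test, adjusted p = 0.163). The pause button, a G/C-rich word linked with paused polymerase, stood at 9.70 and 11.3% of downstream and upstream starts.

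Other gene lists held few downstream peaks in number, at most 3, and several held none. Small lists can still hold a larger share than the 1.48% of all annotated genes. The share was 8% for Polycomb and trithorax, 6.67% for promoter-binding and insulator factors and 8.57% for signalling. Their exact intervals began at 0.984, 0.169 and 1.80%, so only that of signalling lay above 1.48%. The Polycomb and trithorax list, of proteins that keep genes repressed or active through development, had 2 of 25 genes, ph-p and its neighbouring near-copy ph-d, whose signal was 240 at 100 bp with ranks of 1629, 2426 and 2339. ph-p is the far stronger of the pair in every library. Among promoter-binding and insulator factors 1 of 15 was met, Trl, which encodes the GAGA factor, with a signal of 467 at 145 bp and ranks of 760, 1027 and 696. The signalling list had 3 of 35. Stat92E, the transcription factor of the JAK/STAT pathway, had 517 at 363 bp and ranks of 1084, 424 and 385. rho, whose protease releases ligands of the EGF receptor, had 205 at 119 bp, and aop, an ETS-domain repressor in the same pathway, 167 at 63 bp. Their ranks were lower, at 4576, 3688 and 2215 for rho and 8076, 4174 and 3094 for aop.

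Cell cycle genes gave 2 of 36 (5.56%), E2f1 and dap. E2f1, a transcription factor of S phase entry, had 167 at 143 bp. The other, dap, an inhibitor of Cyclin E/Cdk2, had 166 at 94 bp. In replicates 1, 2 and 3 E2f1 ranked 3873, 4492 and 14337, and dap 15556, 2460 and 2314. Both lay near the foot of the joint list, which ends among the members at 157. The translation factors gave 1 of 55, eEF2, the elongation factor of ribosomal translocation, with 296 at 18 bp, where 8 of the 55 had an upstream peak. DnaJ-1, a heat shock co-chaperone, was the only member among 35 chaperone genes, with 270 at 97 bp, and B52, an SR splicing factor, the only one among 36 splicing genes, with 232 at 124 bp. In replicate 1 the summit at B52 lay upstream, at -119 bp. No downstream peak was at a gene of the mitochondrial ribosome (75 genes), oxidative phosphorylation (88), the proteasome (48) or RNA polymerase II and its general factors (64). None was at a gene of the ZAD zinc-finger family (21), segmentation and Hox (31), neural (25) or muscle and mesoderm lists (24). The list of snoRNAs and host genes (264) also had 0, but it may not hold every host. The downstream summits of RpS12 and RpL36A, counted as ribosomal protein genes, also lay upstream of a snoRNA start. These were snoRNA:Me28S-A774b and snoRNA:Psi28S-2648 respectively. Whether RpS12 and RpL36A host them was not tested. Translation factors (1.82%), chaperones (2.86%) and splicing genes (2.78%) had shares that rest on 1 gene each. Below the share of all genes were tRNA genes (0.678%), microRNA genes (0.385%) and the lists without a downstream peak. The counts of the gene lists stand beside the 1.48% of all annotated genes given above and were not tested.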

How the data were processed

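Peaks were deposited by the authors as lists in dm6 coordinates, per the labels: 1 relaxed list per library, 1 from pooled libraries and 1 joint (optimal) list. The deposited signal of each peak and its deposited −log10 q-value are the authors'; neither the peak caller, nor its scaling to the control, nor the read depth is given by the labels. Signal therefore serves to rank, filter or describe peaks of 1 list, and intervals cover counting error only. From the lists, summits were placed against Ensembl release 115 starts, transposable elements left out, and sequence was read from the release 6 genome, whose chromosome lengths hold every peak. Duplicate rows were merged. Named genes were the 25 strongest members overlapping a strongest peak in all 3 libraries, up to 4 per gene list and 3 at each edge. Fisher's exact tests (SciPy 1.17.1) were adjusted by Benjamini-Hochberg (statsmodels 0.14.6) within 4 class comparisons, 12 words and 6 elements, at 0.05. The counting was tested on simulated data. Members, 19 gene lists and words were chosen with earlier results of these data known. Alternatives changed the window, overlap, width of search, peaks used and annotation. A few items are not reported here.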

Additional observations from a re-analysis of the deposited data

How the results depend on the processing

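Of 71 re-computed values of the main comparisons, 60 were counted as unchanged. For tests this meant the same direction and the same side of 0.05. For shares it meant a move of less than the library SD of 6.46 points, and for counts of words or elements an equal or similar count. The sign-flip tests of G+C could not pass 0.05 in any setting, so only their direction could change. The share of downstream peaks among one-way promoter peaks was 31.8% with a window of 1000 bp. The support of downstream less upstream peaks was -3.65 points with that window (Fisher's exact test, p = 0.223), -4.16 points with head-to-head promoters kept (Fisher's exact test, p = 0.172), -6.51 points with 2 times as many library peaks (Fisher's exact test, p = 0.0550) and 0.776 points among peaks above the median signal (Fisher's exact test, p = 0.915). Leaving out each library in turn gave -11.2 to 3.62 points, the highest without replicate 1, as well as a mean share of 24.6 to 30.6% and a G+C difference of 4.83 to 6.12 points. Of the 12 words 1 passed with protein-coding starts alone, 0 among peaks above the median signal and 4 with head-to-head promoters kept. Of the 6 elements 1, the initiator, passed with the window of 1000 bp and among peaks above the median signal. CTTTTC passed with a window of 250 bp, with head-to-head promoters kept and with 100 bp of flank, whereas ATTTAAAA was lost in 4 settings and TATAAA in 1. The cause of these shifts was not tested. No paired analysis was possible because there is no second group of samples to pair by replicate number; the sign-flip tests compare peak classes within each library. Counts of peaks limit every share, and the read depth is unknown.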

Other observations

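Small nuclear RNA genes, whose products work in splicing and in the control of polymerase elongation, were nearest to 4 downstream and 0 upstream promoter peaks, out of 32 annotated snRNA starts. snRNA:7SKa had a signal of 270 at 277 bp and ranks of 2786, 1183 and 1444 in replicates 1, 2 and 3, and snRNA:U1:95Ca 228 at 12 bp and ranks of 2626, 1837 and 2769. snRNA:U4:39B had 203 at 34 bp and no overlapping peak in replicate 1, and snRNA:U1:21D 180 at 102 bp. These genes were chosen after their values were seen, and U1 has near-identical copies whose reads the authors' mapping could divide.

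The weaker downstream peaks included some that stood beside a stronger upstream peak. At stan, which encodes the cadherin Starry night of planar cell polarity, a summit with a signal of 177 at 16 bp stood with one of 621 at -186 bp, and the overlapping peaks of replicates 1, 2 and 3 had their summits at -216, -134 and -175 bp. At CG11151 a summit with a signal of 218 at 471 bp stood with one of 855 at -232 bp. Both genes were chosen after their values were seen.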
